A study of Homo sapiens with 49 samples.

Results

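The genes described here are 38 genes known to be induced by estrogen, other than GREB1, taken by name out of 20090 protein-coding genes of chromosomes 1 to 22 and X. Each gene was read over its GENCODE gene body with 20 kb on each side, on hg19. The data are peak lists from chromatin immunoprecipitation followed by sequencing (ChIP-seq) in Ishikawa, a human endometrial adenocarcinoma line, and T-47D, a human breast carcinoma line. Both lines had been kept for 5 days in hormone-depleted medium and then received 17β-estradiol (E2) at 10 nM or DMSO as vehicle, over 1 h where a protein was precipitated and over 8 h where a histone mark was. The exception among the compared targets was SIN3A, which was set between stripped and full media, so that none of its differences belongs to E2 alone. The title of the single Ishikawa H3K36me3 library names no treatment. The 45 peak lists of the 49 samples comprised 21 of Ishikawa and 24 of T-47D, and the other 4 samples were inputs. Only RNA polymerase II (RNAPII), mapped in T-47D alone, had replicates, 2 per treatment; every other target was a single library per treatment and line, and no test was made on it. Nothing in the labels says that the RNAPII replicates came from separate cultures, so their spread may be technical.

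E2 acts through the estrogen receptor, a nuclear receptor that, once bound by its ligand, binds DNA at estrogen response elements or joins other factors such as AP-1, and recruits co-activators and RNAPII to nearby genes. Breast and endometrial cells use different sets of receptor-bound enhancers. The genes named here code for transcription factors and co-regulators (9 genes), ligands, receptors and adhesion proteins (8), enzymes, channels and transporters (9), and signalling, trafficking, chaperone and survival proteins (12). They were listed as known estrogen-induced genes, mostly from breast cancer cells. The choice was made with earlier results of these data known, so the list is not independent of the data. A list of 25 other estrogen-induced genes, with GREB1, TFF1 and PGR among them, and a list of 11 genes for the receptor and its cofactors stand beside them.

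The value of a gene in a list is its covered length, the base pairs of its window that lie in peaks of that list. The lists held from 2 to 46280 regions, with fold enrichment at the summit (ChIP over background) from 1.84 to 140. The lists do not state their read depth, and a longer list covers more of every gene. The RNAPII lists covered 28.0 Mb and 10.6 Mb after DMSO and 22.6 Mb and 11.9 Mb after E2, in the order of the replicates, so that the replicates of a treatment differed more than the treatments. Very short lists were those of T-47D LSD1 after DMSO (37 regions), SIN3A in stripped medium (70), H3K27me3 after E2 (99) and MAX after DMSO (197), and of Ishikawa MYC (50 and 2), H3K36me3 (114) and RARA after DMSO (136). The line labels were checked on marker genes by an H3K4me3 peak at a start site after DMSO. T-47D had one at 4 of 5 luminal breast markers (GATA3, SPDEF, TBX3 and TRPS1, not TFAP2B) and at 0 of 5 endometrial markers. Ishikawa had one at 4 of 5 endometrial markers (PAX8, EMX2, HOXA10 and HOXA11, not SOX17) and at 1 of 5 luminal markers, TRPS1.

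The T-47D libraries labelled JUN stood apart. Their peaks shared from 0.258 to 0.516 of the combined base pairs with each of the 4 RNAPII lists (Jaccard index), and from 0.0267 to 0.191 with the Ishikawa JUN lists. With the T-47D H3K4me3 lists they shared from 0.271 to 0.350, which is inside the range for RNAPII. Of the length of the T-47D JUN lists, 88.5% (DMSO) and 88.3% (E2) lay inside the RNAPII list of DMSO replicate 1, which covers the most base pairs. In the other RNAPII lists the share ranged from 32.9% to 79.2%. JUN values of T-47D are therefore given as those of the libraries labelled JUN, and no RNAPII value below uses them.

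RNAPII covered more of many estrogen-induced genes after E2. In 15 of the 38 genes both E2 lists covered more than both DMSO lists, against 1.38% of all protein-coding genes. In 0 of the 38 genes both E2 lists covered less than both DMSO lists, against 4.08% of all genes. The 15 genes were 4 of the 9 transcription factors and co-regulators (XBP1, MYBL1, TIPARP and FHL2), 1 of the 8 ligands and receptors (STC2), 3 of the 9 enzymes and transporters (CA12, UGCG and CTSD) and 7 of the 12 signalling and chaperone genes (SGK3, MREG, FKBP4, HSPB8, SIAH2, TPD52L1 and IFITM10). In 21 genes the treatments overlapped, and AREG and ELOVL2 had no RNAPII region in any list. The windows of CTSD and IFITM10, neighbours on chromosome 11, overlap and share most of their regions, so the 15 genes stand for 14 places. Among genes with an H3K4me3 peak at a start site after DMSO, the background was 1.55%. A single library moved these counts. Without DMSO replicate 1 the count was 31 of 38 beside 43.6% of all genes, without E2 replicate 2 it was 27 beside 11.2%, and without DMSO replicate 2 the E2 value was the lower one in 8 of 38 beside 65.3%.

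No gene passed the test across all genes. In limma's moderated test on log2(covered bp + 100), 0 of 14647 genes tested, or 0%, had a Benjamini-Hochberg adjusted p under 0.05, and 36 of the 38 genes were among those tested. At an unadjusted p under 0.05 there were 45 genes, 37 of them higher after E2, and 4 of the 45 were estrogen-induced genes named here: HSPB8, FHL2, SIAH2 and CA12, each higher. The median log2 difference, E2 minus DMSO, was 1.20 over the 36 genes and -0.13 over all genes tested. With 2 libraries against 2, an exact two-sided permutation test of 1 gene cannot give a p below 0.333. Without DMSO replicate 1 the same test called 130 genes, 124 of them higher, among them CTSD, CXCL12, FHL2, IFITM10, KCNK5 and MYB. That fit has 1 DMSO library, assumed to vary like the E2 libraries.

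The 2 replicate values of covered length are given for each of the 15 genes in the order DMSO replicates 1 and 2, then E2 replicates 1 and 2. CA12, a membrane carbonic anhydrase (chr15:63613577-63674045), had 2904 and 1584 bp, then 32743 and 11512 bp. FHL2, a LIM domain co-regulator of transcription (chr2:105974169-106054970), had 3035 and 1176 bp, then 26904 and 13441 bp. HSPB8, a small heat shock protein (chr12:119609360-119662660), had 2175 and 1879 bp, then 18708 and 17192 bp. The E2 libraries of these 3 genes lay far above the DMSO libraries, with ratios of the means of 9.86, 9.58 and 8.86. In limma the log2 differences were 3.12 (SE 0.88) for CA12, 3.26 (SE 0.86) for FHL2 and 3.09 (SE 0.70) for HSPB8, each with an adjusted p of 1.00. HSPB8 had the smaller spread, at 2027 ± 209 bp after DMSO and 17950 ± 1072 bp after E2 (mean ± SD, n = 2).

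SIAH2, an E3 ubiquitin ligase (chr3:150458912-150481264), had 2349 and 1453 bp after DMSO and 16575 and 10007 bp after E2. Its ratio of means was 6.99 and its log2 difference 2.73 (SE 0.76). TPD52L1, of the tumor protein D52 family, had 1434 and 713 bp, then 7721 and 2980 bp. CTSD, the lysosomal protease cathepsin D, had 10222 and 1285 bp, then 30246 and 24250 bp, and its neighbour IFITM10 had 10222 and 1285 bp, then 29995 and 24250 bp. The DMSO libraries of CTSD differed from each other by more than its E2 libraries did.

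STC2, a secreted glycoprotein hormone (chr5:172741726-172755450), had 8196 and 3423 bp after DMSO and 16085 and 15025 bp after E2. FKBP4, a co-chaperone of steroid receptors, had 5281 and 2402 bp, then 12737 and 9167 bp. UGCG, the glucosylceramide synthase, had 1943 and 2308 bp, then 6780 and 6746 bp. These 3 genes had ratios of the means of 2.68, 2.85 and 3.18, and UGCG had replicates that nearly coincided in each treatment.

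MREG, a protein of melanosome transport, had 1107 and 1215 bp, then 3949 and 2788 bp. TIPARP, a mono-ADP-ribosyltransferase, had 1906 and 759 bp, then 4224 and 2460 bp. SGK3, a kinase of the serum and glucocorticoid regulated family, had 2058 and 353 bp, then 2512 and 3001 bp. For SGK3 the gap between the higher DMSO library and the lower E2 library was small beside the gap between its DMSO libraries. MYBL1, a MYB family transcription factor, had 2476 and 925 bp, then 3024 and 3164 bp. In the MYBL1 gene body alone the treatments overlapped, with 1783 and 585 bp, then 1663 and 1597 bp. The 20 kb downstream of MYBL1 had 693 and 340 bp, then 1361 and 1567 bp. XBP1, the transcription factor of the unfolded protein response, had 6153 and 7050 bp, then 9845 and 12683 bp. Its ratio of means, 1.71, was the lowest of the 15.

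Other genes had more length in the means but overlapped. CXCL12, the chemokine ligand of CXCR4, had 1699 and 0 bp after DMSO and 8404 and 963 bp after E2. SLC7A5, a transporter of large neutral amino acids, had 31465 and 3190 bp, then 39114 and 30693 bp. KCNK5, a potassium channel, had 582 and 0 bp, then 3567 and 344 bp. In each of them DMSO replicate 1 exceeded E2 replicate 2. PRLR, the prolactin receptor, held the longest RNAPII coverage of the 38 genes, 93290 and 152776 bp after DMSO and 77831 and 140882 bp after E2, with the replicates further apart than the treatments. In PRLR, as in XBP1, replicate 2 covered more than replicate 1 in both treatments although its lists were shorter. MYB, KLF10, NRIP1, OLFM1, P2RY2, ABCA3 and RAB31 had ratios of the means from 1.29 (KLF10) to 4.10 (OLFM1) and also overlapped. BCL2, PDZK1, EGR3, RET, RERG, SLC39A6, RHOBTB3, ADCY9, CELSR2 and KLF4 had ratios of the means between 0.682 (ADCY9) and 1.27 (PDZK1), and in each the treatments overlapped. The plot of RNAPII length shows all 36 genes with a region.

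**Figure D1:**
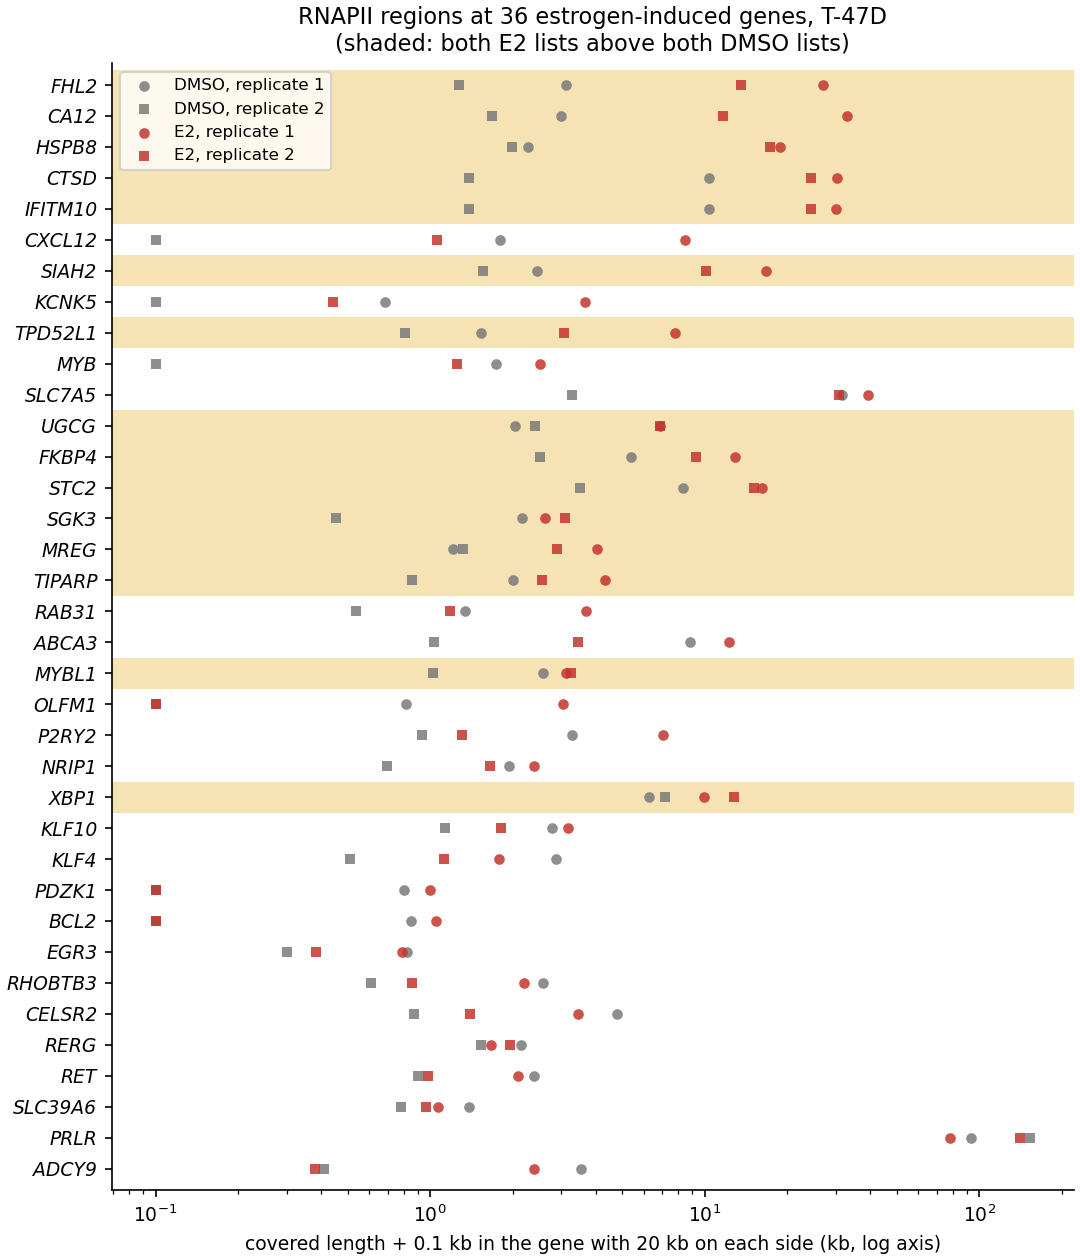
Covered length of RNAPII regions plus 0.1 kb (x axis, kb, log scale) in 36 estrogen-induced genes of T-47D, ordered by log2 difference. Points are the 4 libraries (grey DMSO, red E2; circles replicate 1, squares replicate 2), and shading marks the 15 genes in which both E2 libraries lie to the right of both DMSO libraries; the 2 genes with no region are left out.

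The added length at the 15 genes lay around start sites, further into the genes and in the flanks. RNAPII was already at a start site (a peak within 250 bp) in 34 of the 38 genes in DMSO replicate 1 (64.2% of all genes) and in 21 in DMSO replicate 2 (46.5%), against 34 (59.7%) and 29 (51.7%) in the E2 replicates. In 0 genes was there a start-site peak in both E2 lists and in neither DMSO list. Of the 15 genes, 14 had a start-site peak in all 4 lists, MREG being the other one. Most of the genes start at several places, so the length within 1 kb of any annotated start site was set against the rest of the gene body, a split chosen after the data were seen. The mean E2 length exceeded the mean DMSO length in both places in all 15 genes. These genes had been picked for more length in the same lists, so more length within their windows was given by the choice. The split shows only where it lay, and it leaves out the flanks beyond 1 kb of a start site. More base pairs were added in the rest of the gene body in 8 of the 15 genes (FHL2, STC2, CA12, MREG, HSPB8, SIAH2, TPD52L1 and IFITM10) and near start sites in 7.

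The places differ in size, so the covered share of each is also given. The E2 minus DMSO difference in percentage points was larger near start sites in 8 genes and larger in the rest of the body in 7. FHL2 was covered over 8.56% of the places near its starts after DMSO and 36.9% after E2, and over 0.744% and 19.6% of the rest of its body (means of the replicates). HSPB8 went from 8.88% to 57.0% near starts and from 2.30% to 26.4% in the rest. STC2 went from 44.5% to 93.9% near starts and from 25.8% to 84.3% in the rest. In UGCG the rest of the body went from 0% to 3.14%, beside 26.2% and 53.4% near starts. CTSD added 13629 bp downstream, where IFITM10 lies, and 7438 bp in its own body beyond 1 kb from the outermost 5′ end. By the same parts, MYBL1 added 948 bp downstream and 425 bp in its body, and UGCG added 2338 and 1550 bp. The downstream part was the largest in these 3 genes, and the body was the largest in the other 12.

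As a share of the gene body, RNAPII peaks covered 3.52% and 2.13% of CA12 after DMSO and 50.2% and 16.0% after E2, by replicate. They covered 42.0% and 19.3% of STC2 after DMSO, then 87.4% and 86.9%. They covered 52.8% and 1.99% of CTSD after DMSO, then 98.5% and 86.5%. In all 3 genes the lower E2 library exceeded the higher DMSO library. For XBP1 the shares were 32.4% and 54.7%, then 67.9% and 94.0%.

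**Figure D2:**
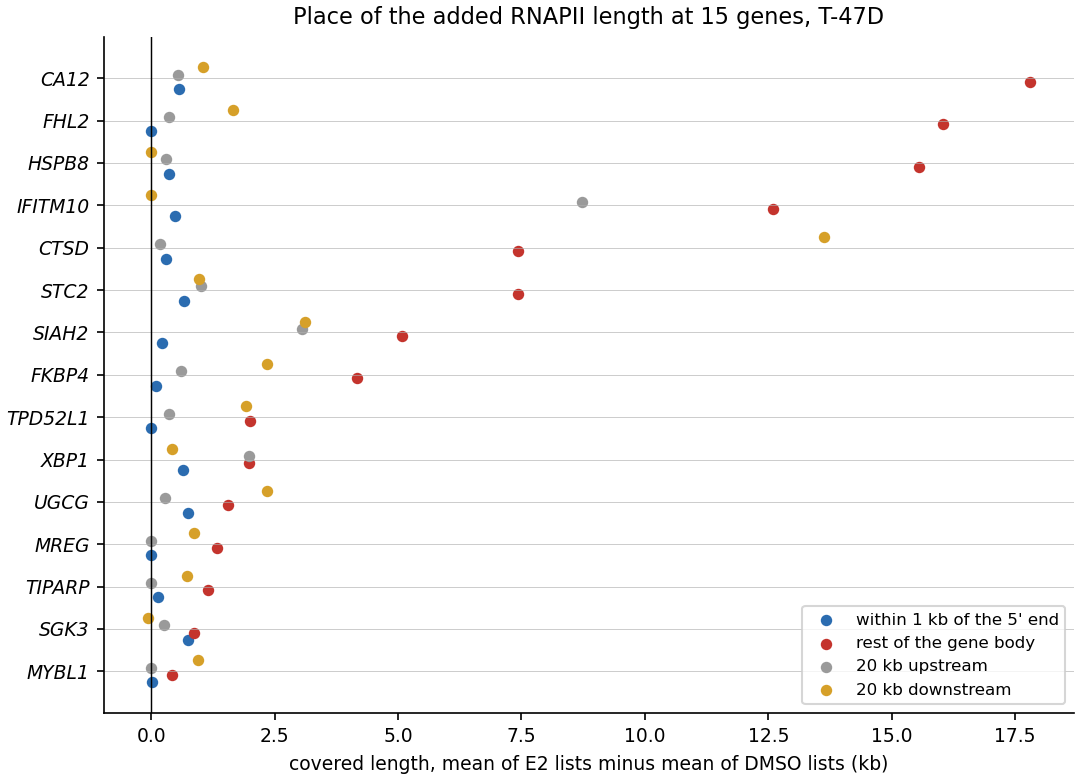
RNAPII length in T-47D, mean of the E2 lists minus mean of the DMSO lists (x axis, kb), for 15 estrogen-induced genes and 4 parts of each window: within 1 kb of the 5′ end (blue), the rest of the gene body (red), 20 kb upstream (grey) and 20 kb downstream (yellow). Red points reach 17.8 kb in CA12, while blue points stay under 1 kb in a place at most 2 kb wide around the outermost 5′ end, so that peaks at other start sites count as gene body; the upstream part of IFITM10 and the downstream part of CTSD share regions, and the upstream part includes the first 1 kb before the 5′ end.

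Single regions were gained at 14 of the 15 genes, XBP1 being the exception. The 15 genes had been picked on the same lists, so this count is no separate evidence. A gained region, with peaks of both E2 lists and no overlap with a DMSO peak, was found near 18 of the 38 genes, against 2.92% of all genes. Of 934 such regions, 772 lay in the window of a protein-coding gene. In the windows of the 38 genes lay 82 of them, 8.78% of all 934. Those windows make up 0.239% of the combined length of all gene windows, a share that leaves out sequence between windows. The reverse, a region in both DMSO lists and neither E2 list, occurred 115 times and 0 times near these genes. CA12 held 18 of the gained regions, FHL2 16, SIAH2 12 and HSPB8 10. TPD52L1 had 5, FKBP4 had 4, and CTSD and IFITM10 shared 4. KLF10, CXCL12, MYB and RAB31, which were not among the 15 genes, had 1 each. Counted per gene, 61 of the gained regions lay in gene bodies, 22 downstream and 3 upstream.

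To look for the receptor's own site, the full palindrome GGTCA, 3 bases, TGACC was searched in the genome sequence (GRCh37), where it reads alike on both strands. It was within 300 bp around the summit of 1 of the 82 gained regions (1.22%), against 2.72% of 772 gained regions near any protein-coding gene. Over whole windows it occurred in 5 of the 38 genes (13.2%), against 8.73% of all genes. Genes with longer windows have more chances to hold it. A partial element was not searched, and the receptor itself was not among the targets of the lists. The matches near SIAH2, NRIP1, CELSR2 and PRLR are shown in stretches of 121 bp, since they are the places where an element and the peak lists can be compared. Capitals mark the palindrome, in the forward strand of hg19, and none of these stretches overlaps an annotated exon.
SIAH2, chr3:150474377-150474497: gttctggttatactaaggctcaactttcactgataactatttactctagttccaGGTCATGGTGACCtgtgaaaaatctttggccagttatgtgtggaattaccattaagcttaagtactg
NRIP1, chr21:16437908-16438028: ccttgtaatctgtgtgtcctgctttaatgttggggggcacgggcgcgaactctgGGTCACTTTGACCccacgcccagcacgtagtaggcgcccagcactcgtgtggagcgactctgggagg
CELSR2, chr1:109788981-109789101: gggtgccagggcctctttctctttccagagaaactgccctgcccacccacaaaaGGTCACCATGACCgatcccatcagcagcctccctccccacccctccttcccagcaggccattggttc
PRLR, chr5:35088542-35088662: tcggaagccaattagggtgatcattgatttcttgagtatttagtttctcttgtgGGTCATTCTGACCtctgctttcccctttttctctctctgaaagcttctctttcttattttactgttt

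The SIAH2 element lay in an intron, 6827 bp from the 5′ end, inside the gained RNAPII region chr3:150474009-150475042. That region had a fold enrichment of 14.7 in the E2 list of replicate 1 and 16.3 in that of replicate 2, and no peak in either DMSO list. Of all 45 lists, only those 2 held a peak over it. The NRIP1 element, in an intron 289 bp from the 5′ end of this corepressor of nuclear receptors, was covered in 8 lists, the 4 H3K4me3 lists of both lines, the 2 T-47D lists labelled JUN and RNAPII replicate 1 of both treatments. The CELSR2 element, upstream of this cadherin gene at -3120 bp from the 5′ end, was covered in 3 lists, among them RNAPII E2 replicate 1. The PRLR element, 141987 bp from the 5′ end, was covered in RNAPII replicate 2 of both treatments. Thus only the SIAH2 element was covered in both E2 lists and neither DMSO list of RNAPII, as were 23 of 1319 such elements near all protein-coding genes. The element near EGR3 was in 0 lists.

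The AP-1 motif, TGANTCA on either strand, was within the same 300 bp in 13 of the 82 gained regions (15.9%), against 12.3% of the 772 regions near any gene, a share near the background. In 100 bp around the summit it was in 4 of the 82, against 3.63%. Stretches of FHL2, STC2 and CTSD are shown as those of the 3 genes whose gained region with this motif had the highest lower fold enrichment (the smaller of the E2 replicates). They were chosen after their values were seen, and capitals mark the motif in the forward strand of hg19.
FHL2, chr2:106020694-106020794: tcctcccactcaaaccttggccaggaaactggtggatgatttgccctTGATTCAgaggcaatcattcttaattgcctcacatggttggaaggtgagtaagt
STC2, chr5:172749136-172749236: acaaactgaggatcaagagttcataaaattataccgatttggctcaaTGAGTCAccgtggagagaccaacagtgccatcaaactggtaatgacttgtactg
CTSD, chr11:1763713-1763813: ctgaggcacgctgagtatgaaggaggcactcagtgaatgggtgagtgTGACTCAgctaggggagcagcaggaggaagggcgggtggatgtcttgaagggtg

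The FHL2 motif lay in an intron 113 bp from the summit of a gained region of 839 bp, with a lower fold enrichment of 19.2. The STC2 motif lay in an intron 131 bp from the summit of a region of 367 bp, with a lower fold enrichment of 15.3. The CTSD motif lay downstream of CTSD, inside the gene IFITM10 and an unnamed annotated protein-coding gene that also spans the stretch. It was 20 bp from the summit of a region of 2637 bp, with a lower fold enrichment of 13.6.

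Beside the 38 genes, 7 of the 25 other estrogen-induced genes had both E2 lists above both DMSO lists (GREB1, TFF1, PGR, IGFBP4, MYC, KRT19 and KDM4B), 28.0% of them, and 0 had the reverse. Their median log2 difference was 0.78. GREB1 had 5958 and 552 bp after DMSO and 88781 and 60041 bp after E2. Of the 11 genes of the receptor and its cofactors, 0 had both E2 lists higher, and FOXA1 and GATA3 had both lower. ESR1, the estrogen receptor gene, had 6375 and 3003 bp after DMSO and 8881 and 5796 bp after E2, which overlap.

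H3K4me3, the mark of active promoters, was at a start site of most of the 38 genes with or without E2. In Ishikawa it marked 32 genes after DMSO (67.4% of all genes) and 31 after E2. In T-47D it marked 35 after DMSO (62.1% of all genes) and 33 after E2. HSPB8 was the gene that lost its start-site peak in Ishikawa, against 0.294% of all genes, with 449 bp after DMSO and 0 bp after E2. SLC7A5 and ELOVL2, a fatty acid elongase, lost theirs in T-47D, against 3.66% of all genes. SLC7A5 covered 2434 bp after DMSO and 812 bp after E2 in T-47D, and 1523 bp and 4023 bp in Ishikawa. In T-47D the largest differences were at PRLR, from 8657 to 12148 bp, and SIAH2, from 2665 to 4761 bp, the list after E2 covering more. With 1 library per group these are values without a replicate check.

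The lines differed at a handful of these promoters. After DMSO 31 of the 38 genes were marked by H3K4me3 in both lines, CELSR2 in Ishikawa alone, and CXCL12, OLFM1, RERG and IFITM10 in T-47D alone. AREG, a ligand of the EGF receptor, and PDZK1, a scaffold of transporters, were marked in neither. CXCL12 covered 3365 and 3113 bp in T-47D (DMSO and E2) and 0 bp in both Ishikawa lists. OLFM1, a secreted olfactomedin protein, covered 2899 and 2192 bp in T-47D and also 0 bp in Ishikawa. AREG had no H3K4me3 and no RNAPII region in any list. PDZK1 had 299 and 230 bp of H3K4me3 in T-47D, away from its start sites, and RNAPII in replicate 1 of each treatment alone. In the single Ishikawa list of H3K36me3, whose title names no treatment, 0 of the 38 genes had a region.

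**Figure D3:**
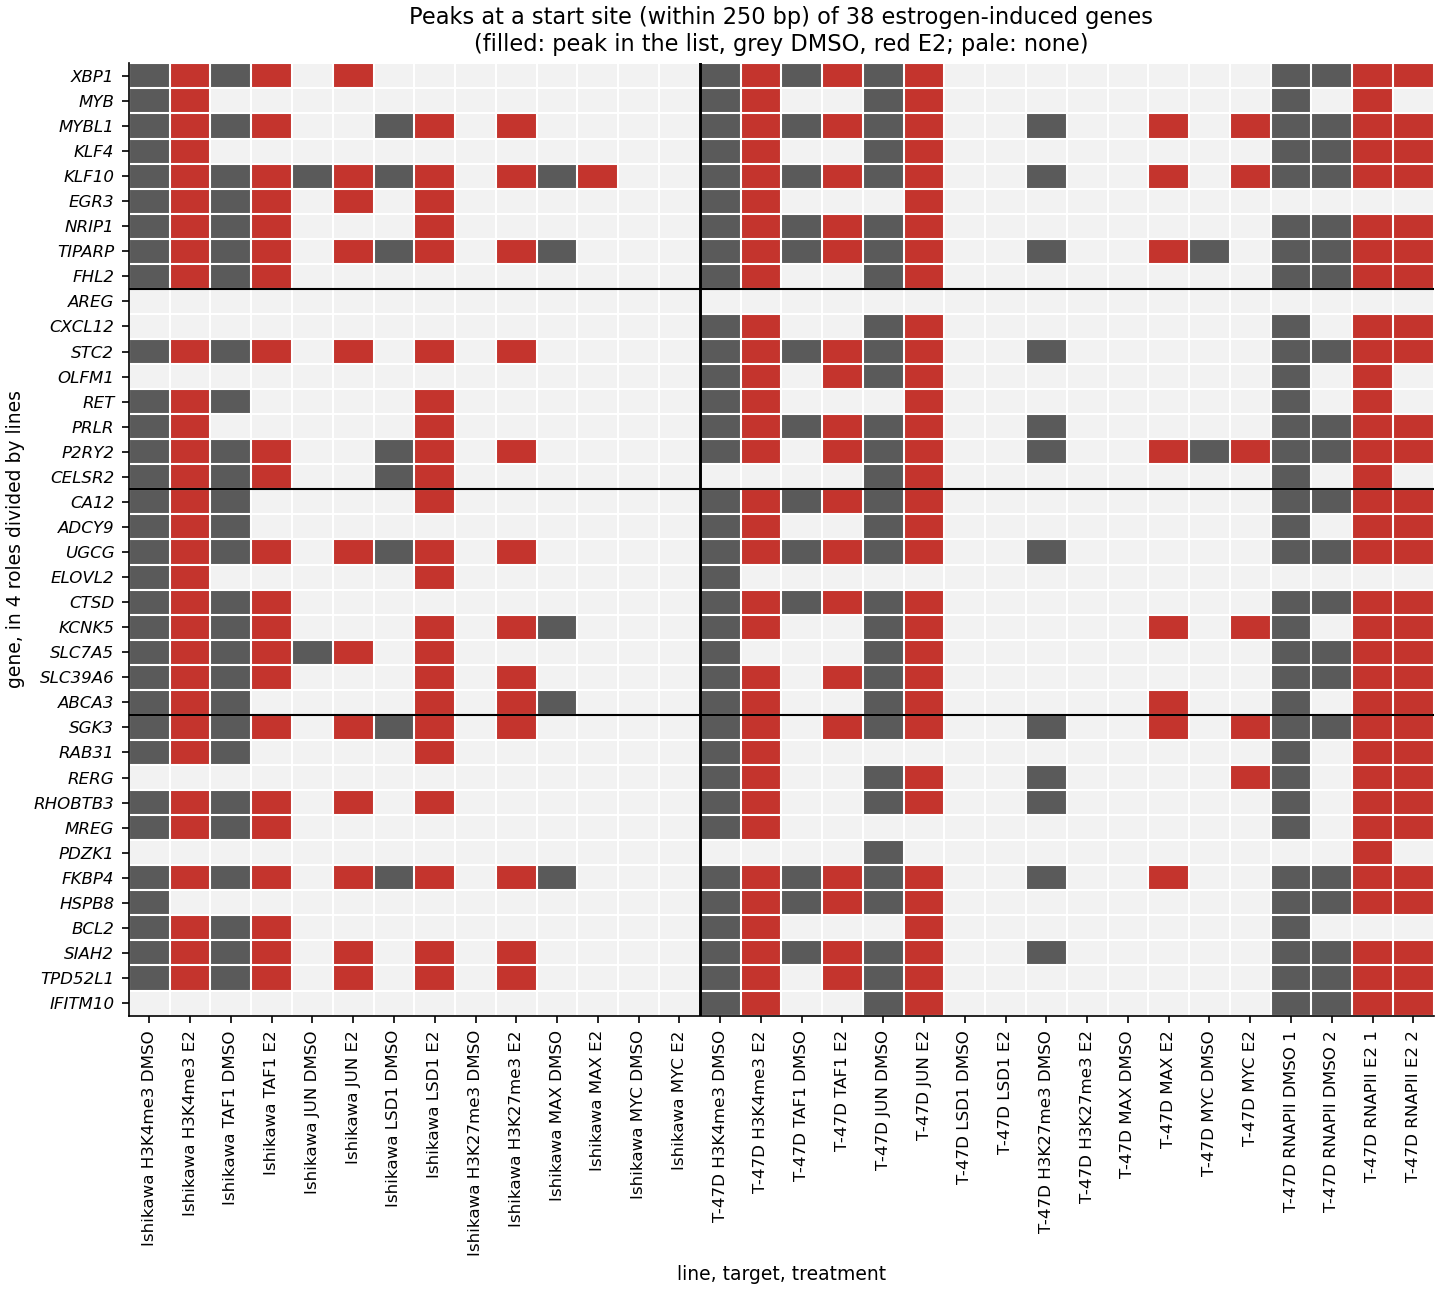
Peaks within 250 bp of a start site for 38 estrogen-induced genes (rows, in 4 roles) in 32 lists of Ishikawa (left) and T-47D (right). Filled squares are peaks (grey DMSO, red E2), and pale squares mean no peak; H3K4me3 fills most rows in both lines, RNAPII is present under DMSO at most genes, and LSD1 is filled in Ishikawa alone.

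TAF1, a subunit of the general transcription factor TFIID, differed in opposite directions in the lines, as numbers of start sites. In T-47D it was at 13 of the 38 genes after DMSO and 18 after E2. The 5 genes that gained it were P2RY2, SLC39A6, TPD52L1, SGK3 and OLFM1, against 7.06% of all genes. Its covered length was at least 2-fold higher after E2 in 15 of the 38 genes, against 11.8% of all genes, and after scaling both lists to the same total in 8, against 9.13%. Among genes with an H3K4me3 peak at a start site after DMSO, it was higher in 15 of 35, against 16.6%. With peaks of fold enrichment 10 or more alone it was higher in 4 of the 38 genes, against 7.14%, and gained at the start site of 1, against 3.98%. XBP1 had 540 bp after DMSO and 2029 bp after E2, SIAH2 had 589 and 1424 bp, and TIPARP had 489 and 1145 bp. In Ishikawa it was at 27 genes after DMSO and 22 after E2, and RET, CA12, ABCA3, ADCY9 and RAB31 lost it, against 4.33% of all genes. ADCY9, an adenylyl cyclase, had 3038 bp after DMSO and 1659 bp after E2. The T-47D TAF1 lists had 4587 and 5643 regions and the Ishikawa lists 19348 and 16552.

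The E-box factors MAX and MYC had start-site peaks at few protein-coding genes, at most 10.1% in any of their lists. The most of the 38 genes in any of these lists was 8, for T-47D MAX after E2, against 7.04% of all genes. In T-47D, MAX was at a start site of 0 genes after DMSO, in a list of 197 regions, and of 8 genes after E2, in a list of 1490. These were P2RY2, FKBP4, ABCA3, TIPARP, KCNK5, MYBL1, SGK3 and KLF10, against 6.52% of all genes. MYC gained a start-site peak at RERG, KCNK5, MYBL1, SGK3 and KLF10, against 6.05% of all genes, and lost one at TIPARP, against 1.33%. Its covered length was at least 2-fold higher in 11 of the 38 genes, against 12.1% of all genes, with MYBL1 going from 0 to 830 bp and ABCA3, a lipid transporter, from 0 to 747 bp. Among genes with an H3K4me3 peak at a start site after DMSO, it was higher in 10 of 35, against 16.8%. With peaks of fold enrichment 10 or more alone, 5 of the 38 genes were higher in MYC, against 3.76%. In Ishikawa, MAX was lost at FKBP4, ABCA3, TIPARP and KCNK5, against 6.45% of all genes, all 4 of which gained it in T-47D, as did 19.8% of all genes that lost it. MYC had 0 regions near the 38 genes in either Ishikawa list, which held 50 and 2 regions.

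In Ishikawa the lists of JUN, LSD1 and H3K27me3 were much longer after E2, with 18310 regions against 3763 for JUN and 18382 against 8613 for LSD1. JUN, a subunit of AP-1, gained a start-site peak in 10 of the 38 genes (FKBP4, XBP1, SIAH2, TIPARP, RHOBTB3, STC2, TPD52L1, EGR3, SGK3 and UGCG), against 28.8% of all genes. Its covered length was at least 2-fold higher in 25 of the 38 genes, against 54.3%. Among genes with an H3K4me3 peak at a start site after DMSO, it was higher in 24 of 32, against 68.5%. SLC7A5 stood out, with 2611 bp in 7 regions after DMSO and 37164 bp in 23 regions after E2, the widest of 7299 bp. In the T-47D libraries labelled JUN, SLC7A5 had 33944 bp after DMSO and 31364 bp after E2, and in RNAPII it was among the longest of the 38 genes. The next differences in Ishikawa JUN were at TPD52L1, from 1126 to 5504 bp, and KLF10, from 1294 to 4247 bp.

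LSD1, a histone demethylase, was at a start site of 8 of the 38 genes after DMSO and of 23 after E2 in Ishikawa. The 15 gains stand against 24.5% of all genes, and covered length was at least 2-fold higher in 19 of the 38 genes, against 42.8%. Among genes with an H3K4me3 peak at a start site after DMSO, it was higher in 17 of 32, against 53.1%. CELSR2 had 932 and 3224 bp, SLC7A5 had 1037 and 3059 bp, and P2RY2, a purinergic receptor, had 1301 and 3258 bp. In T-47D the LSD1 lists had 37 and 441 regions and were at 0 start sites of the 38 genes. RARA gained a start-site peak in Ishikawa at KLF10, against 8.12% of all genes, and in T-47D it was at a start site of 0 of the 38 genes in both lists.

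H3K27me3, known as the mark of Polycomb-silenced genes, was at start sites of 13 of the 38 genes in Ishikawa after E2 and of 0 after DMSO, against gains in 23.5% of all genes. In T-47D it was the reverse, with 12 genes after DMSO and 0 after E2, against losses in 22.5% of all genes, and the list after E2 held 99 regions. Of the 13 and 12 genes, all 13 and all 12 also had H3K4me3 at a start site in the same line and treatment, as did 99.7% and 99.2% of all genes with such a peak. The genes in both sets were MYBL1, KLF10, TIPARP, STC2, P2RY2, UGCG, SGK3, FKBP4 and SIAH2, which is 69.2% of the 13 and 75.0% of the 12, beside 50.5% and 57.0% of all genes with such a peak. The lengths were short, up to 1437 bp at KLF10 in Ishikawa and 1598 bp at FKBP4 in T-47D. What these lists hold at active promoters was not tested.

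H3K4me1, the mark of enhancers, covered less of the 38 genes after E2 in T-47D. Its covered length was at least 2-fold lower in 15 of the 38 genes, against 13.7% of all genes, while the lists covered 1.75 Mb after DMSO and 0.577 Mb after E2. A lower length needs a region after DMSO, which 20 of the 38 genes had, against 17.4% of all genes. The excess over all genes is therefore not separate from more H3K4me1 regions at the 38 genes before E2. PRLR went from 3084 to 818 bp, SIAH2 from 1971 to 437 bp and STC2 from 1254 to 193 bp. Of these 15 genes, IFITM10, CTSD, FKBP4, HSPB8, CA12, FHL2, XBP1, SIAH2, STC2 and SGK3 had more RNAPII in both E2 lists, and CELSR2, ADCY9, PRLR, KCNK5 and KLF10 overlapped. These 10 are 66.7% of the 15, and 3.71% of all genes with such a lower H3K4me1 length also had more RNAPII. More RNAPII was itself commoner among the 38 genes than among all genes, as given above. Read the other way, the 10 are also 66.7% of the 15 genes with more RNAPII, beside 36.8% of all genes with more RNAPII. H3K4me1 was read after 8 h and RNAPII after 1 h. With peaks of fold enrichment 10 or more alone, 3 of the 38 genes were lower, against 1.50%. In Ishikawa 1 gene, CTSD, gained a start-site peak of H3K4me1, against 1.34% of all genes, and TPD52L1 lost one, against 2.53%. Covered length there was at least 2-fold lower in 4 of the 38 genes (RET, SLC39A6, MREG and UGCG), against 12.3% of all genes.

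**Figure D4:**
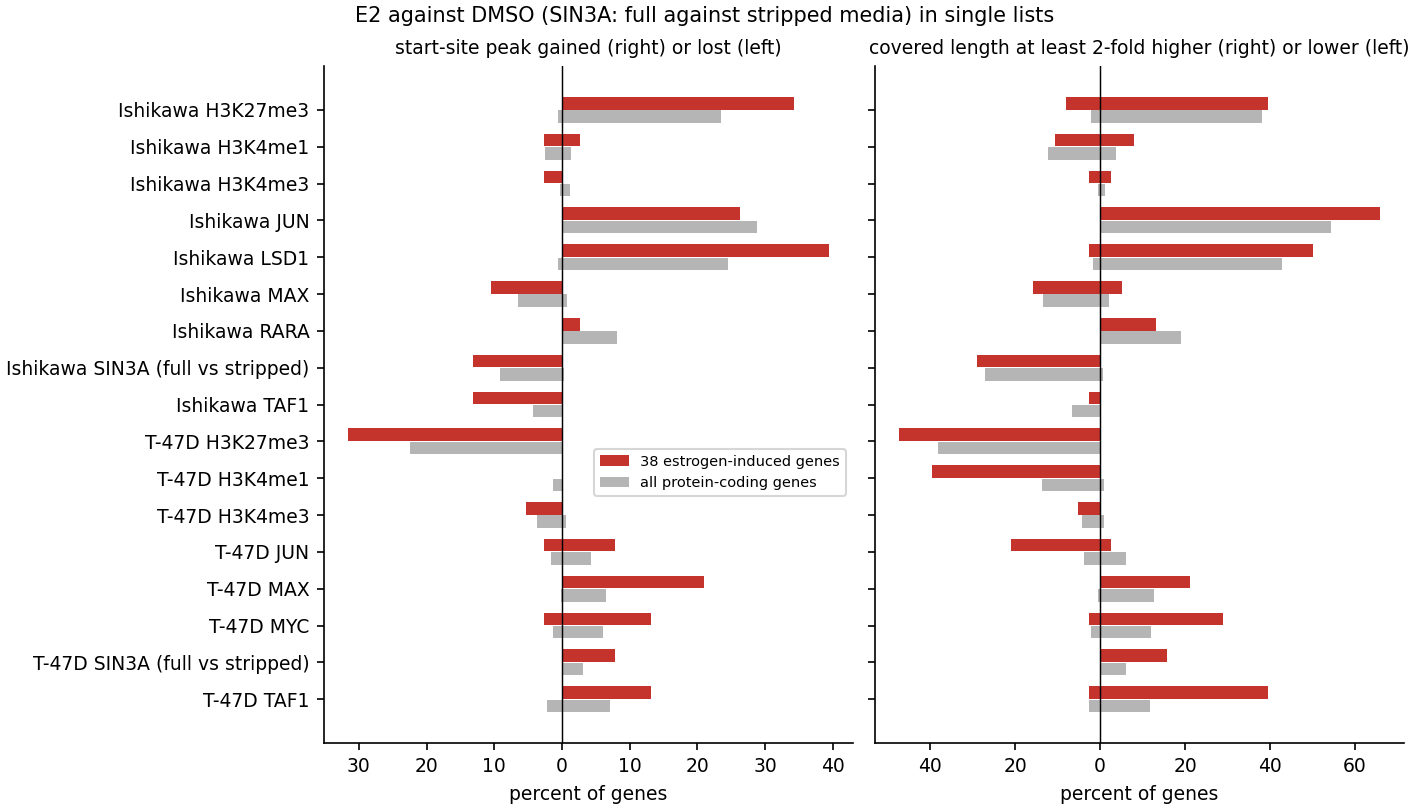
Percent of genes (x axis) with a start-site peak gained or lost (left panel) and with covered length at least 2-fold higher or lower (right panel), for 38 estrogen-induced genes (red) and all 20090 protein-coding genes (grey), in 17 pairs of single lists. Bars to the right are gains or higher values after E2 (full medium for SIN3A), bars to the left the reverse. The red bars exceed the grey ones most in T-47D TAF1 and T-47D H3K4me1 and lie close to them for gains of Ishikawa JUN. A lower T-47D H3K4me1 length needs a region after DMSO, which 20 of the 38 genes had, against 17.4% of all genes.

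In the T-47D libraries labelled JUN the list after DMSO covered more in 21 of the 38 genes and the list after E2 in 15. Covered length was at least 2-fold lower after E2 in 8 of the 38 genes (FKBP4, HSPB8, CA12, RAB31, FHL2, MREG, XBP1 and PRLR), against 3.88% of all genes. It was at least 2-fold higher in 1, EGR3, against 6.04%. A start-site peak was gained at RET, BCL2 and EGR3, against 4.30% of all genes, and lost at PDZK1, against 1.56%. CA12 had 6548 bp in the library labelled DMSO and 2162 bp in that labelled E2, FKBP4 had 8742 and 3252 bp, and FHL2 had 4875 and 2012 bp. PRLR had 22765 and 3383 bp. In 13 of the 15 genes with more RNAPII after E2, the library labelled JUN DMSO covered more than that labelled JUN E2, whereas over all genes it covered more in 29.6% and less in 47.7%. Both lists share base pairs with the RNAPII lists and with the T-47D H3K4me3 lists, as given above, and whether their labels fit their contents was not tested.

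**Figure D5:**
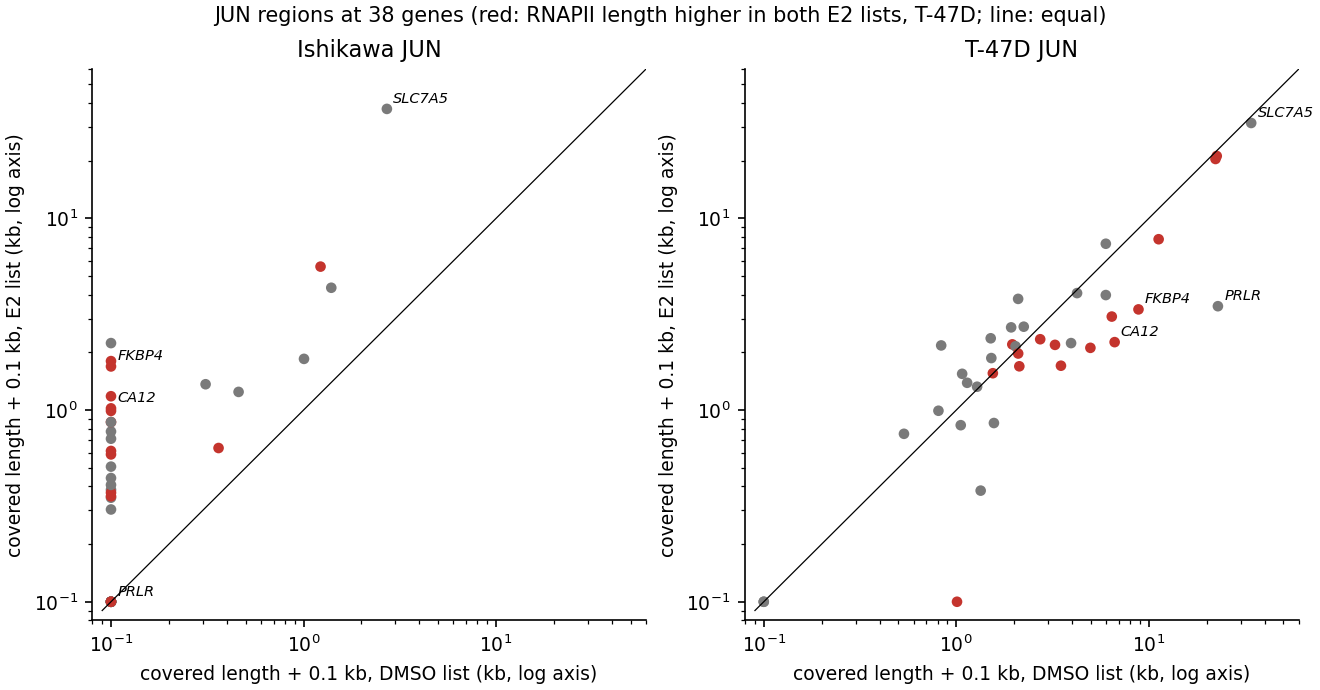
Covered length plus 0.1 kb (kb, log axes) in the DMSO list (x axis) and the E2 list (y axis) of JUN for 38 estrogen-induced genes, in Ishikawa (left) and T-47D (right). Red points are the 15 genes with more RNAPII after E2, and the line marks equal values; all Ishikawa points lie on or above the line, and in T-47D 13 of the 15 red points lie below it.

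SIN3A, a corepressor, was at a start site of 27 of the 38 genes in Ishikawa cells in stripped medium and of 22 in full medium. CELSR2, ADCY9, RAB31, MREG and PRLR lost it, against 9.22% of all genes. STC2 had 3243 and 1382 bp, and EGR3, an immediate early transcription factor, had 2735 and 1016 bp. In T-47D it gained a start-site peak in full medium at P2RY2, TIPARP and MYBL1, against 3.06% of all genes, in lists of 70 and 649 regions.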

How the data were processed

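The study's authors aligned ChIP-seq reads to hg19 with bowtie (Bowtie 1.1.2 in the submitters' processing notes), keeping reads with a single placement, and called peaks per library with MACS2 2.1.0.20140616. The deposited narrowPeak lists give each peak a score, which is 10 times its −log10 p, the fold enrichment at the summit (a ratio of ChIP to background), and −log10 values of p (lowest 10.0) and of q (lowest 4.66). No list states its depth. Covered length was counted on regions that do not overlap within a list, which was checked when each list was loaded. Per gene and list, covered base pairs, regions and a peak within 250 bp of any annotated start were taken over the GENCODE release 44 gene body (lifted to GRCh37) with 20 kb on each side, in Python 3.11.15 with pandas 2.3.3. RNAPII was tested with limma 3.58.1 on log2(covered bp + 100) for genes with a mean of at least 200 bp, with Benjamini-Hochberg adjustment. A 2-fold difference was read on covered bp + 100. The counting of base pairs was checked on simulated data. The members, lists and tests were chosen with earlier results of these data known. Genes with RNAPII above or below DMSO in both E2 lists or with no region, up to 5 largest differences per target, and start-site gains or losses of 10 or fewer are named by rule.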

Additional observations from a re-analysis of the deposited data

Results flagged for a closer look

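The number of the 38 genes with a start-site peak went up in one line and down in the other for 4 targets, each from 1 library per line and treatment, so no test of the lines against each other was made. For H3K27me3 the change in Ishikawa (from 0 to 13 genes) minus that in T-47D (from 12 to 0) was 25 genes, while the share over all genes went from 2.50% to 25.4% and from 22.5% to 0%. For MAX it was -12 genes (from 5 to 1 in Ishikawa and from 0 to 8 in T-47D), with all genes going from 10.1% to 4.38% and from 0.707% to 7.04%. For TAF1 it was -10 genes (from 27 to 22 and from 13 to 18), with all genes going from 59.9% to 55.8% in Ishikawa and from 4627 to 5608 genes in T-47D. For SIN3A, between stripped and full media, it was -8 genes (from 27 to 22 and from 0 to 3), with all genes going from 59.5% to 50.5% and from 0.224% to 3.27%. All genes thus moved in the same directions as the 38. The lists differed in the same sense, from 2193 to 6989 regions of H3K27me3 in Ishikawa and from 6301 to 99 in T-47D, and from 3365 to 1999 regions of MAX in Ishikawa and from 197 to 1490 in T-47D. The part of list length in these changes was not tested.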

How the results depend on the processing

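Covered length follows how long a list is and how peaks were called, depth is unknown, and single libraries allow no test. Of 166 alternative values, 115 stayed within 1.5 times the reported count and 51 did not; except where a value is given with its construction, the cause was not tested. The count of genes with both RNAPII E2 lists higher was 15 as reported. Over the other windows, peak numbers, stricter peaks, equal list lengths and scaling it ranged from 12 to 21 (1.09% to 5.69% of all genes). When 1 library was left out it ranged from 15 to 31 (2.08% to 43.6%). The reverse count ranged from 0 to 8 (0.717% to 65.3%), with 1 without the flanks (4.75%) and 1 with peaks of fold enrichment 10 or more (2.85%). The limma calls ranged from 0 to 130 genes and from 0 to 6 of the 38 when 1 library was left out, and every other fit gave 0. The replicate numbers are shared by the treatments without a stated pairing. With the replicate number as a block, limma called 0 genes, with 438 genes and 16 of the 38 at an unadjusted p under 0.05, and comparing equal numbers alone gave 24 of 38 genes higher and 2 lower after E2 (6.93% and 20.4% of all genes). Deviations from the treatment means correlated at 0.635 between equal numbers and at -0.635 between unequal ones. With 2 replicates these values mirror each other by construction. Replicate 1 had the longer list in both treatments, so the correlation cannot tell a pairing from list length.

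In what follows, shares of all genes stand in brackets. Reading the outermost 5′ end alone gave 14 genes with Ishikawa TAF1 after E2 (47.2%) and 20 with T-47D H3K4me3 after E2 (48.5%). It gave 8 (18.3%) and 10 (22.6%) with T-47D TAF1 after DMSO and E2. It gave gains of 0 for Ishikawa H3K4me1 (0.458%), 5 for T-47D MAX (4.90%), 2 for T-47D MYC (4.32%), 1 for T-47D SIN3A (2.37%) and 2 for T-47D TAF1 (6.03%). Its losses were 0 for Ishikawa H3K4me1 (1.12%), 0 for Ishikawa H3K4me3 (0.473%), 4 for T-47D H3K4me3 (4.75%) and 0 for T-47D MYC (1.07%). With 1000 bp on each side, gains were 3 for Ishikawa H3K4me1 (2.09%) and 2 for Ishikawa RARA (8.76%). Losses were 3 for Ishikawa H3K4me1 (4.57%) and 1 for T-47D H3K4me3 (2.44%). With peaks of fold enrichment 10 or more alone, gains were 3 for Ishikawa JUN (6.24%), 6 for T-47D JUN (7.99%) and 5 for T-47D MAX (4.40%). They were 2 for T-47D MYC (1.60%), 1 for T-47D SIN3A (1.63%) and 1 for T-47D TAF1 (3.98%). Losses with these peaks were 0 for Ishikawa H3K4me3 (0.567%), 0 for Ishikawa MAX (0.567%) and 12 for Ishikawa SIN3A (17.5%). They were 8 for Ishikawa TAF1 (8.72%), 1 for T-47D H3K27me3 (3.06%) and 7 for T-47D H3K4me3 (12.0%). With the same peaks, covered length was 2-fold higher in 14 (Ishikawa JUN, 24.4% of all genes), 7 (T-47D JUN, 11.5%), 5 (T-47D MYC, 3.76%) and 4 genes (T-47D TAF1, 7.14%). It was 2-fold lower in 3 (T-47D H3K4me1, 1.50%). T-47D TAF1 was at start sites of 5 genes after DMSO (3.42%) and 6 after E2 (6.92%). T-47D H3K4me1 was 2-fold lower in 9 genes without flanks (7.01%). Scaled to equal totals, T-47D TAF1 was 2-fold higher in 8 genes (9.13%). The AP-1 motif was in 4 gained regions within 100 bp.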
